A study of Mus musculus with 2 samples.

Results

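The 10 genes described here encode chains of interleukin and interferon receptors, namely Il7r, Il2rg, Il6ra, Il6st, Il10ra, Il10rb, Il13ra1, Il17ra, Ifngr1 and Ifnar1. They were chosen by name from the 10402 gene symbols with expression values, with earlier results of these data known. RNA was sequenced from peritoneal macrophages of ECM1-deficient mice and of ECM1-sufficient mice, with 1 library per genotype and therefore without replicates. ECM1 is extracellular matrix protein 1, a secreted glycoprotein. In both groups the cells came from the peritoneal cavity 3 days after an agent the labels call ThG and were not activated further. The labels do not give the strain, age or number of mice, or the kind of Ecm1 allele. No difference below has a replicate check or a test.

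Cytokine receptors of these families are built from separate chains. One chain usually recognises the cytokine, and a second, often shared, chain completes the signalling complex on the membrane. Class I chains bind interleukins such as interleukin-7, interleukin-4 and interleukin-6, and class II chains bind interferons and cytokines related to interleukin-10. Both classes carry Janus kinases (JAK), which phosphorylate STAT transcription factors, whereas the receptors of interleukin-17 signal through the adaptor encoded by Traf3ip2. In macrophages, interferon gamma and type I interferons are known for promoting antimicrobial and antiviral programmes, interleukin-10 for restraining inflammation, and interleukin-4 and interleukin-13 for driving alternative activation.

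The sequences just upstream of the transcription start are shown for the 2 chains of the interleukin-7 receptor, Il7r and Il2rg, and for Ifngr1, the chain with the second highest level. They differ in their content of CpG dinucleotides and in the motifs they hold. RefSeq promoter windows on GRCm38.p6 were matched for 7 of the 10 genes, and those of Il10ra, Il10rb and Il17ra were not matched. Each line gives the 250 bases before the RefSeq start, read 5′ to 3′ on the gene's strand, with motif matches in capitals. The windows are chr15:9529877-9530126 on the minus strand for Il7r, chrX:101268256-101268505 on the minus strand for Il2rg and chr10:19591699-19591948 on the plus strand for Ifngr1.
Il7r: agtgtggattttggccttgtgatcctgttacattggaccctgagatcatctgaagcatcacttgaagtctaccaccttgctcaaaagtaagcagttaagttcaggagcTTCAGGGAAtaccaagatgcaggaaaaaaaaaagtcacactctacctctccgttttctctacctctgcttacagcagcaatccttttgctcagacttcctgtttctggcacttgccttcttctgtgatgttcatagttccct
Il2rg: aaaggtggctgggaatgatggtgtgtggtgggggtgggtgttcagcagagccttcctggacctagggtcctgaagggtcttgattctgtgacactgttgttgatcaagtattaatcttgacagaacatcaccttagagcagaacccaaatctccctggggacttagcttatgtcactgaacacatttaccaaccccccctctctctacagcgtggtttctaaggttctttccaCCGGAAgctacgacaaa
Ifngr1: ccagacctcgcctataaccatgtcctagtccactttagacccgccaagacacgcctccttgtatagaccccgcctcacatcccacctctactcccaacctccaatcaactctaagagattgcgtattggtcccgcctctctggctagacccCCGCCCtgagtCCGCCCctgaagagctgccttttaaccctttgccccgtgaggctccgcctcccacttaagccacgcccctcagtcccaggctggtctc
Motifs were searched on both strands as STAT (TTCNNNGAA, its own reverse complement), ETS (CCGGAA), PU.1 (GAGGAA) and GC box (GGGCGG). Il7r held 1 STAT match from base -142 to -134 before the start, Il2rg 1 ETS match from -17 to -12, and Ifngr1 2 GC box matches, from -99 to -94 and from -88 to -83. No matches overlapped in these windows. Of 32851 promoter windows of the same length, 7.02% held the STAT motif, 12.0% ETS, 23.3% PU.1 and 32.7% the GC box. The Il7r window had 1 CpG dinucleotide and 44% G or C, and the Il2rg window 3 CpG and 49.2% G or C. Ifngr1 had 11 CpG and 59.2% G or C, against medians of 6 CpG and 52.4% over all windows. The windows of Il6ra, Ifnar1, Il13ra1 and Il6st held 18 to 26 CpG. In the GENCODE M21 annotation, 86 bases of the Il7r window also lie in an exon of a transcript of the same gene annotated as noncoding.

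Levels are in FPKM as the authors deposited them. The unit scales fragments by the length of the transcript and by how many fragments were mapped, so levels can be set side by side between genes. Each difference is that of log2(FPKM + 1), ECM1-deficient minus ECM1-sufficient. A gene was called 2-fold higher or lower when this difference reached 1 in size, and folds given for single genes are plain FPKM ratios. Ecm1 itself was at 1.02 FPKM in the ECM1-deficient library and 5.63 FPKM in the ECM1-sufficient library, 5.51-fold lower, the direction of the labels. A shift common to most genes separated the libraries. Over the 9032 genes that reached 1 FPKM in either library, 90.5% had the larger value in the ECM1-deficient one. Among genes at 1 FPKM or more in both, the median ratio was 1.73-fold, or 0.79 on the log2 scale. Of the genes called 2-fold, 87.2% were higher with FPKM as deposited, 33.9% after both libraries were brought to that median ratio and 56.3% after they were brought to equal sums. For each of the 10 receptor chains a second difference is given, relative to the median gene, with that ratio divided out.

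All 10 receptor chains had the larger value in the ECM1-deficient library, by 1.66-fold to 13.04-fold. Il2rg, Il6st, Il10rb and Il17ra were called 2-fold higher, 0 were called lower and 6 stayed within 2-fold. Over all 9032 genes, 14.8% were called 2-fold higher and 2.17% lower. The median difference of the 10 chains was 0.87, against 0.61 over all genes, and relative to the median gene it was 0.29, against 0.03. Relative to the median gene 0 of the 10 chains were called in either direction, where 2.45% of all genes were called higher and 4.77% lower, and 9 of the 10 lay above 0, as did 54.3% of all genes. With equal sums 2 were called higher, Il6st and Il17ra, and 0 lower, where 4.22% of all genes were called higher and 3.28% lower. On that scale 10 of the 10 lay above 0, as did 78.0% of all genes. Il6ra and Il17ra were at 1 FPKM or more in the ECM1-deficient library and below it in the other, so these members entered the 9032 genes through the library in which they are high.

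**Figure D1:**
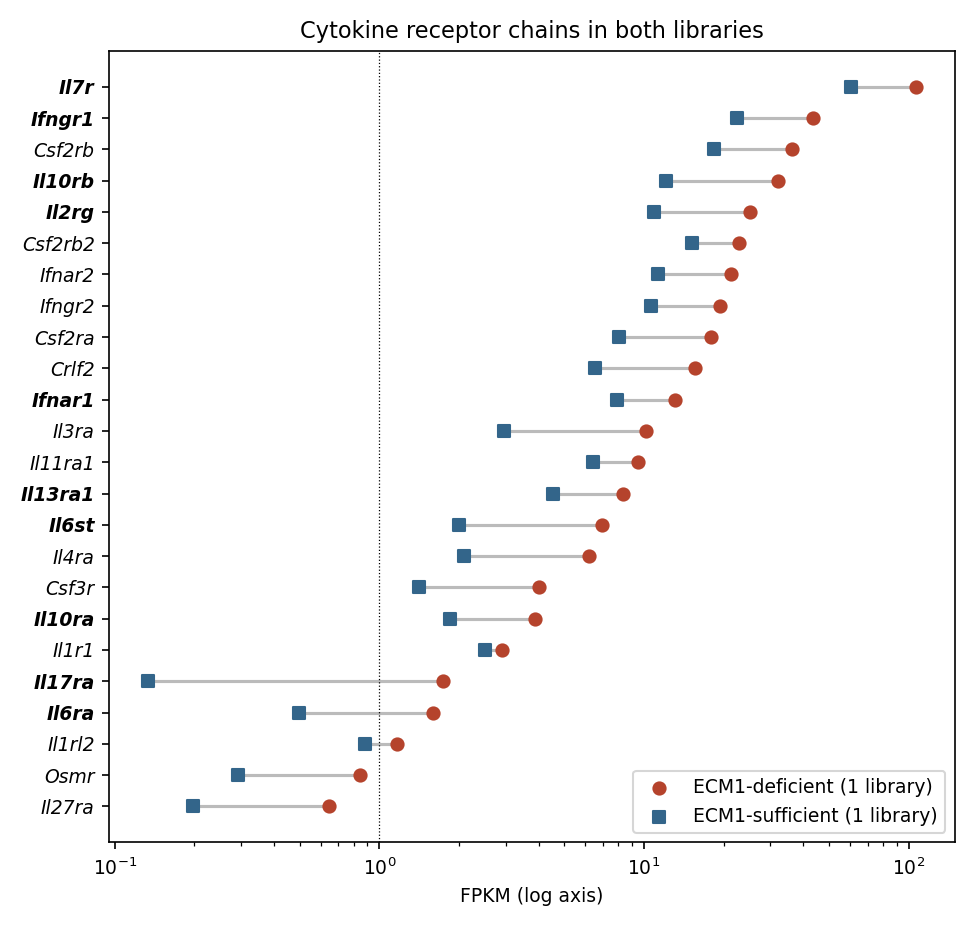
FPKM on a log axis for 24 cytokine receptor chains, with circles for the ECM1-deficient library and squares for the ECM1-sufficient library, 1 library each. The 10 chains described here have bold names, the dotted line marks 1 FPKM, and Il7r is the highest in both libraries at 107 and 60.3 FPKM.

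**Figure D2:**
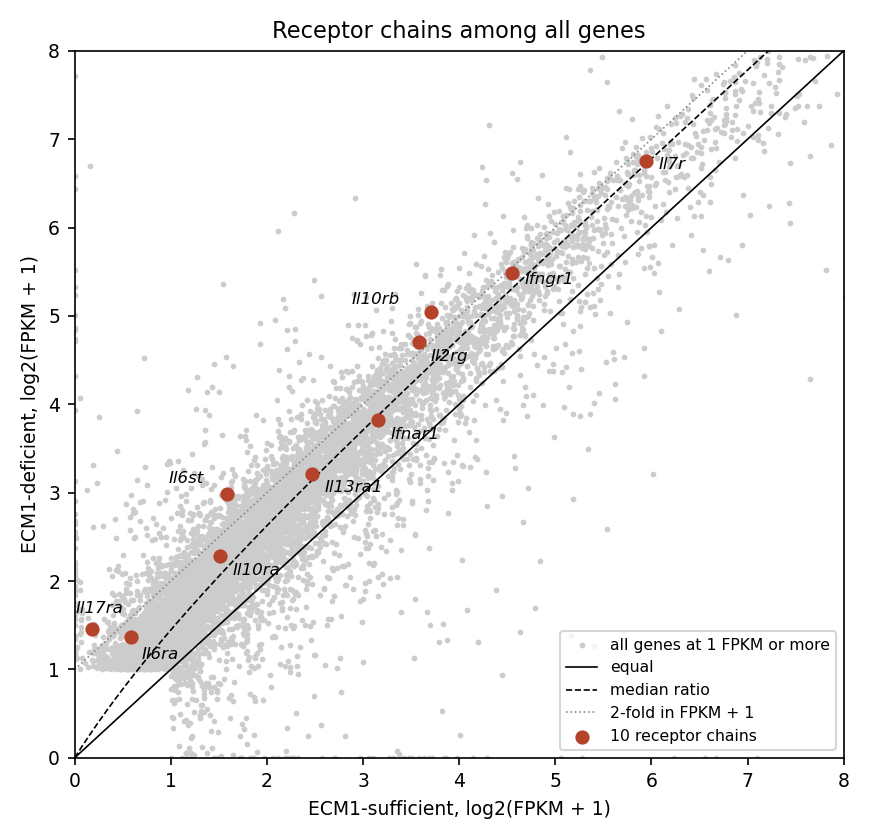
Log2(FPKM + 1) in the ECM1-deficient library (vertical axis) against the ECM1-sufficient library (horizontal axis) for genes that reach 1 FPKM in either library, in grey, and for the 10 receptor chains. Both axes end at 8, which leaves out 101 genes; Il7r, Il13ra1 and Ifnar1 lie near the dashed line of the median ratio of 1.73, and Il6st, Il10rb, Il2rg and Il17ra lie above the dotted 2-fold line.

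Il7r, which encodes the alpha chain that binds interleukin-7, was the most abundant receptor chain in both libraries. It lies on chromosome 15 from 9506161 to 9529876 on the minus strand. Il7r was at 107 FPKM in the ECM1-deficient library and 60.3 FPKM in the ECM1-sufficient library, 1.77-fold higher, a difference of 0.82. With the common ratio divided out this came to 0.04, and 2647 of the 9032 genes had a larger deposited difference. Its level ranked 269th among those genes in the ECM1-deficient library and 336th in the ECM1-sufficient library, within the top 2.98% and 3.72%. It exceeded Ifngr1, the next chain, 2.45-fold and 2.69-fold in those libraries. Among 14 genes used to recognise macrophages, 11 had a lower level than Il7r in the ECM1-deficient library and 10 in the ECM1-sufficient library. Cd63, Tyrobp and Cd68 stood above Il7r in both, at 2197, 1399 and 689 FPKM in the ECM1-deficient library and 1720, 1386 and 401 FPKM in the ECM1-sufficient library. Adgre1, which encodes F4/80, was at 64.7 and 31.0 FPKM in the ECM1-deficient and ECM1-sufficient library, Cd14 at 54.6 and 25.8 FPKM, Itgam at 54.5 and 32.6 FPKM, and Csf1r, the receptor of the macrophage growth factor, at 18.9 and 7.70 FPKM.

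Because Il7r is best known from lymphocytes, markers of other cells were read beside it. Of 22 T cell markers, 3 had FPKM, and these summed to 8.95 in the ECM1-deficient library and 7.46 in the ECM1-sufficient library. They were the adaptor gene Lat at 7.20 and 3.63 FPKM, Cd28 at 1.06 and 3.54 FPKM, and Cd2 at 0.698 and 0.292 FPKM. Of these, Cd28 was called 2-fold lower. The defining genes Cd3d, Cd3e, Cd3g, Cd4, Cd8a and Lck had no value in the table as used here, which leaves out genes under about 0.500 FPKM in both libraries. The NK and innate lymphoid list had values for 0 of 14 genes. The B cell list had 3 of 13, summing to 9.52 FPKM in the ECM1-deficient library and 3.67 FPKM in the ECM1-sufficient library. Of these, Cd22 (5.605 and 2.17 FPKM) and Cd79a (2.43 and 0.378 FPKM) were called 2-fold higher, and Cd79b (1.49 and 1.13 FPKM) was not. Scaled by the common ratio, Cd79b came to -0.22, 2 of the 3 lay above 0, and 0 were called. The part of lymphocytes in the level of Il7r was not tested. The dendritic cell list had 1 of 9, Cd24a at 1.60 and 34.8 FPKM, which was called 2-fold lower. The neutrophil, eosinophil and mast cell list had 5 of 16, summing to 7.59 and 6.45 FPKM in the same order of libraries. Its tryptase gene Tpsb2 was at 1.31 FPKM in the ECM1-deficient library and listed at 0 in the other, and was called 2-fold higher. The other 2 reaching 1 FPKM were lower in the ECM1-deficient library, S100a8 (3.69 against 4.98 FPKM) and Siglecf (1.07 against 1.38 FPKM). Cpa3 and Retnlg, under 1 FPKM in both libraries, were higher there. Markers of large resident peritoneal macrophages had values for 6 of 12 genes, summing to 80.0 FPKM in the ECM1-deficient library and 41.1 FPKM in the other, and markers of monocytes and small peritoneal macrophages for 6 of 10, summing to 74.5 and 40.8 FPKM. Those called 2-fold higher in the first list were F10 at 60.0 and 27.6 FPKM, Thbs1 at 7.75 and 3.30 FPKM and Cxcl13 at 3.26 and 0.434 FPKM, and in the second Itgax at 15.6 and 4.93 FPKM, Chil3 at 11.6 and 5.09 FPKM and F13a1 at 9.30 and 3.50 FPKM. With the common ratio divided out, Cxcl13 was still called higher and the other 5 of these were not. On that scale Serpinb2 of the first list, at 4.96 and 7.69 FPKM, was called lower at -1.22. Gata6 of the same list was at 3.46 and 2.15 FPKM and came to -0.07. Among all genes tested, 14.8% were called higher and 2.17% lower as deposited, and 2.45% and 4.77% on that scale. All 14 macrophage markers had values, summing to 4656 FPKM in the ECM1-deficient library and 6448 FPKM in the other. That order rests on the lysozyme gene Lyz2, at 5.44 FPKM in the ECM1-deficient library and 2774 FPKM in the ECM1-sufficient library, and without it the sums were 4650 and 3674 FPKM. Of the 14, 6 were called 2-fold higher and 1, Lyz2, lower, against 14.8% and 2.17% of all genes tested. Sirpa was at 85.5 FPKM in the ECM1-deficient library and 36.7 FPKM in the ECM1-sufficient library, and Spi1, the transcription factor PU.1, at 28.8 and 6.73 FPKM. With the common ratio divided out, 7 of the 14 lay above 0. On that scale Fcgr1 and Spi1 were called higher and Lyz2 lower. Sirpa came to 0.43, Cd63 to -0.43 and Tyrobp to -0.77. In bulk RNA, fewer cells of a type and less RNA per cell cannot be told apart.

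Il2rg encodes the common gamma chain, which joins Il7r in the interleukin-7 receptor and also serves interleukin-2, interleukin-4, interleukin-9, interleukin-15 and interleukin-21. It lies on chromosome X from 101264378 to 101268255. It was at 25.1 FPKM in the ECM1-deficient library and 10.9 FPKM in the ECM1-sufficient library, 2.29-fold higher, with a difference of 1.13 and of 0.39 relative to the median gene. Its partners Il2ra, Il2rb, Il9r, Il15ra and Il21r had no value in the table as used here. Crlf2, the chain that pairs with Il7r to bind thymic stromal lymphopoietin (TSLP), was at 15.7 and 6.55 FPKM in the ECM1-deficient and ECM1-sufficient library, a difference of 1.14. Il4ra, which binds interleukin-4, was at 6.22 and 2.10 FPKM, a difference of 1.22. These 2 were called 2-fold higher, of 5 partner chains at 1 FPKM or more, where 14.8% of all genes tested were called higher. With the common ratio divided out, Crlf2 came to 0.43 and Il4ra to 0.61, and 0 of the 5 were called.

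Il13ra1 encodes the chain that completes the type II receptor of interleukin-4 and interleukin-13 together with Il4ra. Located on chromosome X from 36112110 to 36171259, it was at 8.30 FPKM in the ECM1-deficient library and 4.52 FPKM in the ECM1-sufficient library, 1.83-fold higher. The difference of 0.75 became 0.08 relative to the median gene. Il13ra1 thus lay close to the typical gene while Il4ra lay above it.

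Both chains of the interleukin-6 receptor were more than 3-fold higher in the ECM1-deficient library. Il6st encodes gp130, the signalling chain shared by interleukin-6, interleukin-11, interleukin-27, oncostatin M and leukaemia inhibitory factor. It lies on chromosome 13 from 112464070 to 112510086 and was at 6.94 FPKM in the ECM1-deficient library and 1.99 FPKM in the ECM1-sufficient library, 3.48-fold higher. Its difference of 1.41 was the largest of the 10 members on the deposited scale, stood behind those of 321 genes, and came to 0.80 with the common ratio divided out. Il6ra, the chain that binds interleukin-6, lies on chromosome 3 from 89864059 to 89913196. It was at 1.59 FPKM in the ECM1-deficient library and 0.498 FPKM in the ECM1-sufficient library, 3.19-fold higher. Its difference of 0.79 did not reach the 2-fold call because 1 FPKM was added to both values, and it came to 0.42 relative to the median gene. Among the other partners of gp130, Il11ra1 was at 9.50 and 6.39 FPKM, Osmr, of the oncostatin M receptor, at 0.849 and 0.293 FPKM, and Il27ra at 0.648 and 0.198 FPKM. Il11ra1 overlaps several annotated genes and has a close copy, Il11ra2, so its value is uncertain. Stromal cells also use gp130, and 9 of 11 mesothelial and fibroblast markers had values. These summed to 137 FPKM in the ECM1-deficient library and 72.9 FPKM in the ECM1-sufficient library, from 0.867 to 66.0 and from 0.585 to 32.4 FPKM per gene. Pdgfra was at 7.62 and 1.57 FPKM, Dcn at 28.1 and 12.8 FPKM and Sparc at 66.0 and 32.4 FPKM. The part of stromal cells in the values of Il6st was not tested.

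The interleukin-10 receptor showed an uneven pair of chains. Il10rb encodes the accessory chain, which is shared with interleukin-22 and the lambda interferons, and lies on chromosome 16 from 91406164 to 91425834. Il10rb was at 32.0 FPKM in the ECM1-deficient library and 12.1 FPKM in the ECM1-sufficient library, 2.65-fold higher, with a difference of 1.34 and of 0.59 relative to the median gene. Il10ra, the chain that binds interleukin-10, lies on chromosome 9 from 45253837 to 45269149. It was at 3.86 FPKM in the ECM1-deficient library and 1.85 FPKM in the ECM1-sufficient library, 2.09-fold higher. Its difference of 0.77 stayed below the 2-fold call and was 0.20 relative to the median gene. The accessory chain was thus the more abundant of the pair in both libraries. Il22ra1 and Ifnlr1, which pair with Il10rb for the other ligands, had no value in the table as used here.

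The interferon receptor chains were measured as complete pairs. Ifngr1, the ligand-binding chain of the interferon gamma receptor, lies on chromosome 10 from 19591949 to 19610229. It was at 43.7 FPKM in the ECM1-deficient library and 22.4 FPKM in the ECM1-sufficient library, 1.95-fold higher, a difference of 0.93 and of 0.17 relative to the median gene. Its partner Ifngr2 was at 19.3 and 10.6 FPKM, a difference of 0.80. Ifnar1, one chain of the type I interferon receptor, lies on chromosome 16 from 91485238 to 91507441 and was at 13.1 FPKM in the ECM1-deficient library and 7.89 FPKM in the ECM1-sufficient library. Its fold of 1.66 and difference of 0.66 were the smallest of the 10 members, and Ifnar1 was the only member below the median gene once the common ratio was divided out, at -0.05. Its partner Ifnar2 was at 21.3 and 11.3 FPKM, a difference of 0.86.

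Il10rb and Ifnar1 belong to a cluster of class II receptor genes on chromosome 16, all on the plus strand. In the order along the chromosome, Ifnar2 starts at 91372783, Il10rb at 91406164, Ifnar1 at 91485238 and Ifngr2 at 91547072. Their folds of the ECM1-deficient over the ECM1-sufficient library were 1.89, 2.65, 1.66 and 1.81 in that order. Il10rb thus stood highest of these neighbours, between a pair nearer to the median ratio of 1.73. On the far side and on the minus strand, Tmem50b had a fold of 2.41, Gart had a fold of 2.00, and Dnajc28 between them stood at 0 in the ECM1-deficient library and 0.500 FPKM in the other. An annotated readthrough gene, Gm21970, overlaps Ifnar2 and Il10rb on the same strand, and another, Gm20489, overlaps Il2rg, so reads could be divided between them and the receptor genes.

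Il17ra encodes the chain shared by receptors of the interleukin-17 family and lies on chromosome 6 from 120463247 to 120487559. It was at 1.74 FPKM in the ECM1-deficient library and 0.133 FPKM in the ECM1-sufficient library, where it was the lowest of the 24 receptor chains with values. The ratio of 13.04 is the largest of the 10 members and rests on a value near 0. Its difference came to 1.27, or 0.98 against the median gene. Il17rb, Il17rc, Il17rd and Il17re, which pair with Il17ra, had no value in the table as used here.

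Ordered by level, the members ran Il7r, Ifngr1, Il10rb, Il2rg, Ifnar1, Il13ra1, Il6st and Il10ra in both libraries. Il17ra and Il6ra came last, with Il17ra above Il6ra in the ECM1-deficient library and below it in the ECM1-sufficient library. Without replicates no pair of neighbours in this order can be said to differ. The members spanned 67.3-fold from highest to lowest in the ECM1-deficient library and 453-fold in the ECM1-sufficient library. Together they held 243 FPKM in the ECM1-deficient library and 123 FPKM in the ECM1-sufficient library, or 0.130% and 0.0895% of all FPKM. Il7r alone made up 44.0% and 49.2% of those sums, and Il10rb 13.2% and 9.84%.

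Ratios of 2 chains within a library do not depend on the common shift, and 9 pairs that share a receptor were compared in this way. Il2rg stood at 0.234 of Il7r in the ECM1-deficient library and 0.181 in the ECM1-sufficient library. Crlf2 stood at 0.146 and 0.109 of Il7r, so that Il7r exceeded either of its partners several times over in both libraries. Ifngr1 over Ifngr2 was 2.26 and 2.11, Ifnar1 over Ifnar2 0.615 and 0.699, and Il6st over Il6ra 4.37 and 4.002. These 3 ratios differed between the libraries by factors of 1.07, 0.879 and 1.09. Il10rb over Il10ra was 8.29 in the ECM1-deficient library and 6.53 in the ECM1-sufficient library. The widest gaps concerned Il6st over Il11ra1, at 0.730 and 0.312, and Il13ra1 over Il4ra, at 1.33 and 2.16, where the second chain is not one of the 10 members. Il2rg over Il4ra was 4.03 and 5.22. No error can be put on these ratios.

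**Figure D3:**
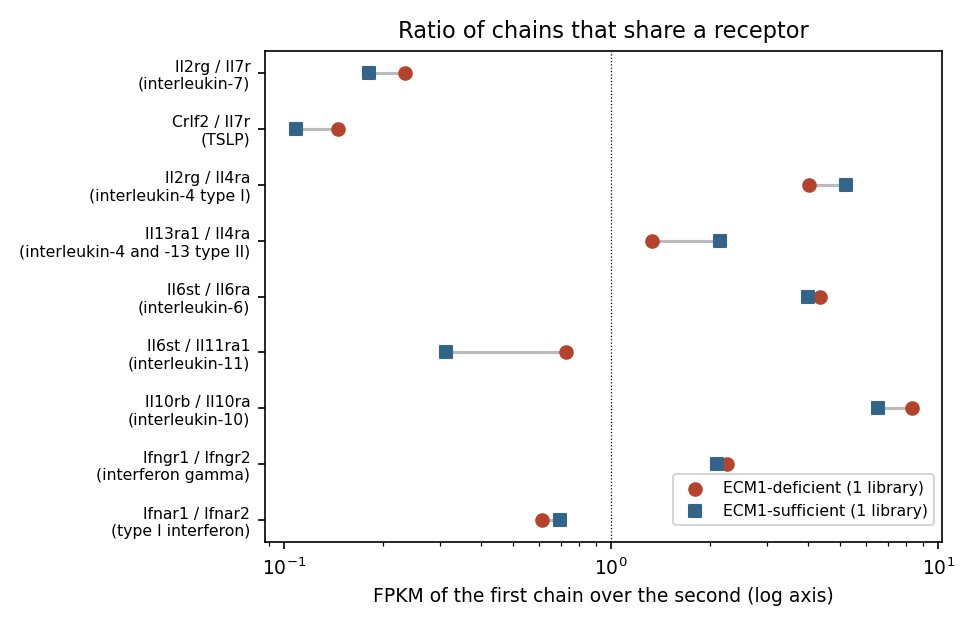
FPKM of the first chain divided by that of the second, on a log axis, for 9 pairs of chains that share a receptor, with circles for the ECM1-deficient library and squares for the ECM1-sufficient library. Ifngr1 over Ifngr2 (2.26 and 2.11) and Il6st over Il6ra (4.37 and 4.002) nearly coincide, while Il6st over Il11ra1 (0.730 and 0.312) lies farthest apart.

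Few ligands of these receptors had values. Of 26 ligand genes, 6 had FPKM and 4 were at 1 FPKM or more, of which 0 were called 2-fold higher or lower. Across all genes tested, 14.8% were called higher and 2.17% lower. Il15, which signals through the common gamma chain, was at 2.93 FPKM in the ECM1-deficient library and 1.88 FPKM in the ECM1-sufficient library, and Ebi3, a subunit of interleukin-27, at 2.89 and 1.65 FPKM. Il27, the other subunit, was at 0.429 and 1.54 FPKM, a difference of -0.83 that reached -1.19 relative to the median gene. Il10 was at 0.738 and 0.405 FPKM and Il6 at 0.281 and 0.834 FPKM. Il7, Tslp, Ifng and Ifnb1 had no value in the table as used here.

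Among the JAK kinases and STAT factors, 0 of 9 genes at 1 FPKM or more were called, with a median difference of 0.81 and of 0.08 relative to the median gene. Across all genes tested, 14.8% were called higher and 2.17% lower as deposited, and 2.45% and 4.77% relative to the median gene. Jak1, a kinase that works with many of these receptors, was at 19.3 FPKM in the ECM1-deficient library and 10.6 FPKM in the ECM1-sufficient library. Stat6, which acts downstream of Il4ra and Il13ra1, was at 23.6 and 19.4 FPKM, a difference of 0.27 and of -0.48 relative to the median gene. Jak3, the kinase bound to the common gamma chain, was at 0.818 and 0.261 FPKM. Of 17 inhibitors of receptor and JAK signalling, 1 was called higher, Socs5, at 3.44 and 1.16 FPKM, and 0 lower, with a median of 0.57 that came to -0.04 against the median gene. Of 11 adaptors and effectors of interleukin-17 signalling, 1 was called higher and 0 lower, with a median of 0.53 that came to -0.10 against the median gene. That one was Tnfaip3, an inhibitor of NF-kB, at 5.28 and 0.792 FPKM, which was also called relative to the median gene. Traf3ip2 was at 0.712 FPKM in the ECM1-deficient library and 0.135 FPKM in the ECM1-sufficient library.

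Genes known to respond to these receptors differed in both directions. Over all 9032 genes, 14.8% were called 2-fold higher and 2.17% lower as deposited, and 2.45% and 4.77% relative to the median gene. Of 13 STAT3 targets, 3 were called higher and 0 lower, with a median of 0.74 and of 0.06 relative to the median gene. These were the Fc receptor gene Fcgr1, at 17.4 FPKM in the ECM1-deficient library and 3.69 FPKM in the ECM1-sufficient library, Tnfrsf1b, a receptor of tumour necrosis factor, at 34.5 and 13.1 FPKM, and Il4ra. With the common ratio divided out 1 of these was called, Fcgr1 at 1.28, while Tnfrsf1b came to 0.59 and Il4ra to 0.61. Socs3, the feedback inhibitor of gp130 signalling, was at 4.40 and 2.64 FPKM. Of 13 interferon gamma targets, 2 were called higher and 1 lower, with a median of 0.75 and of 0.01 relative to the median gene. The higher ones were the transcription factor genes Irf8, at 11.3 and 3.55 FPKM, and Irf1, at 6.36 and 2.03 FPKM. The lower one was the chemokine gene Cxcl10, at 0.417 and 3.94 FPKM. With the common ratio divided out, Irf8 at 0.76 and Irf1 at 0.67 were no longer called, and Cxcl10 was the 1 gene still called lower. Of 16 type I interferon targets, 0 were called higher and 3 lower, with a median of 0.33 and of -0.22 relative to the median gene. Ifit2 was at 0.0514 FPKM in the ECM1-deficient library and 9.21 FPKM in the ECM1-sufficient library, Cmpk2 at 3.10 and 8.68 FPKM, and Rsad2 at 1.83 and 5.16 FPKM. By any size, 9 of the 16 targets were higher in the ECM1-deficient library and 7 lower, where 90.5% of all genes tested were higher. Oas1a, the most abundant of the targets, was at 21.7 and 12.3 FPKM. With the common ratio divided out 6 of these 16 were called lower and 0 higher, while Ifnar1 and Ifnar2 were at -0.05 and 0.12. On that scale 6 of the 16 lay above 0, as did 54.3% of all genes.

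**Figure D4:**
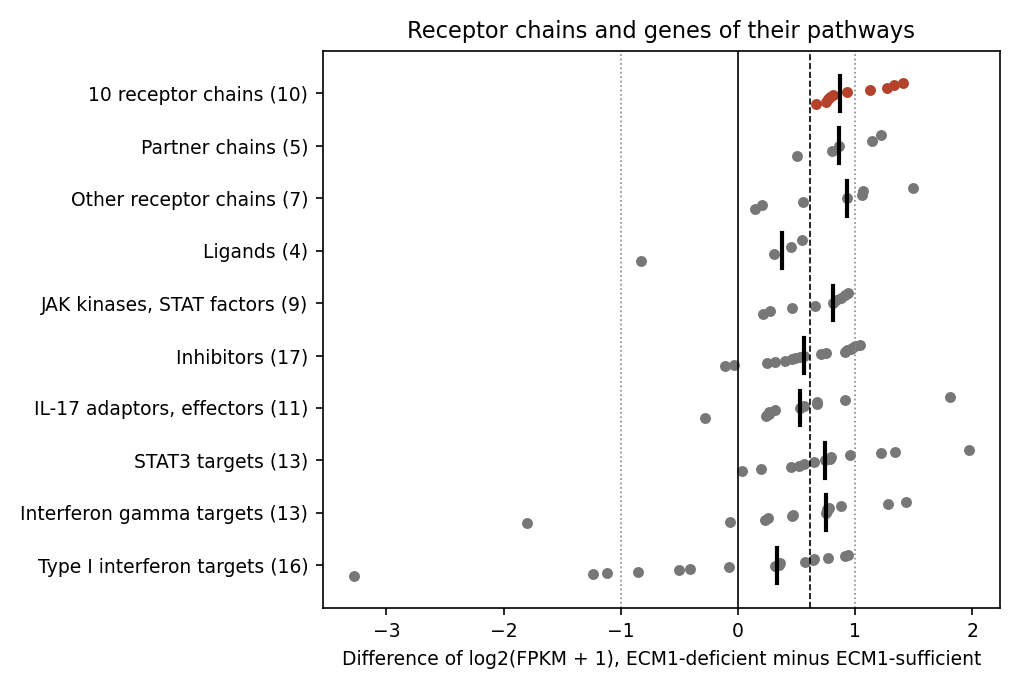
Difference of log2(FPKM + 1), ECM1-deficient minus ECM1-sufficient, for each gene at 1 FPKM or more in the 10 receptor chains and in lists of their partners, ligands and pathways, with the number of genes in brackets. Bars are list medians, the dashed line is the median of all genes at 0.61 and the dotted lines mark 2-fold; the 10 chains lie between 0.66 and 1.41, and the type I interferon targets reach down to -3.28.

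The authors' deposited table of gene ontology terms was made from 4944 differential genes of 23313 and named 9 of the 10 members in at least one of its 2592 biological process terms. Il13ra1 was in 0 of the listed terms, and Il6st was named most often, in 200. For the term cytokine-mediated signaling pathway, the authors' deposited table gave 72 of 272 genes, a fold enrichment of 1.25 and a false discovery rate of 0.0285. Il6ra, Il6st, Il10ra, Il17ra, Ifngr1 and Ifnar1 were the 6 members among those 72. The background of 23313 genes was larger than the 10402 gene symbols with values. Of those symbols, 5311 differed by 1.5-fold or more in FPKM + 1, with the common ratio left in. How often members were named was not compared with other genes. In the authors' deposited gene table, every p-value and q-value was 1.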

How the data were processed

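RNA of 2 libraries was analysed, 1 per genotype. FPKM per gene were deposited by the authors, and the submitters' processing notes name HISAT2, StringTie 1.2.3 and the build mm9. Deposited loci were set against GENCODE M21, which is on GRCm38. It held 10384 of the 10403 identifiers, and each of those 10384 loci overlapped its own gene, so positions are GRCm38. For 9 of the 10 receptor chains start and end were identical, and for Il7r they differed from M21. The deposited table also held log2(FPKM + 1), its log2 fold change and linear fold ratio (ECM1-sufficient over ECM1-deficient), and p-values, and the authors' gene ontology table held numbers of genes, fold ratios and p-values, per the file headers. The values of 1 emptied line are not reported here. The table's values for Il7r and Il13ra1 had at most 6 decimals, as did those of 2457 genes in all. The other 8 members had more, so these are not plain sums of values written with 6 decimals. How transcripts were combined into genes is not given in the sources used here.

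Rows of 1 symbol were summed with Python 3.11.15 and pandas 2.3.3. Genes that reached 1 FPKM in either library were kept, and 1 FPKM was added before log2. To remove the common ratio, its square root divided the ECM1-deficient and multiplied the ECM1-sufficient values, and likewise for equal sums. Depth is unknown. Among weakly expressed genes with 1 transcript, the best of many common steps tried made 17.2% and 16.6% of values whole within 0.05. By chance 1 step fixed beforehand would make 10% whole, and the best of many would make more. These shares therefore do not show a common step. The calculation was tested on simulated data. The members and all lists were chosen with earlier results of these data known. Named genes were the 10 members, Ecm1 and, per list, up to 4 genes past 2-fold or otherwise the 2 most expressed, with further genes as examples of their list. For Il7r they included the 5 genes nearest in log2(FPKM + 1). Alternatives were pseudocounts of 0.1 and 5 FPKM, no minimum, a minimum of 5 FPKM and both rescalings.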

Additional observations from a re-analysis of the deposited data

How the results depend on the processing

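All 10 receptor chains stayed above 0 with pseudocounts of 0.1 and 5 FPKM, with no FPKM minimum and with equal sums, as did the 7 chains left at a minimum of 5 FPKM; after division by the median ratio 9 did and Ifnar1 did not. Against 4 chains called higher and a median of 0.87 as reported, a pseudocount of 0.1 gave a median of 1.11 and 2944 genes called higher over all genes, and a pseudocount of 5 gave 1 chain higher, Il10rb, a median of 0.63, and 286 genes higher and 89 lower. The minimum of 5 FPKM gave a median of 0.93 and 122 genes lower, from fewer genes. Division by the median ratio gave 0 chains higher, a median of 0.29, and 221 genes higher and 431 lower. Equal sums gave 2 chains higher, a median of 0.53, and 381 genes higher and 296 lower. With no minimum the counts were those reported, since a gene under 1 FPKM cannot reach the call. With 6 chains called at the pseudocount of 0.1, Il6ra and Il10ra were the added ones. No chain was called lower under any of these 6 settings. No paired analysis was possible because each genotype has 1 library. For Il17ra and Il6ra, at 0.133 and 0.498 FPKM in the ECM1-sufficient library, depth is unknown and the folds carry no error.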

Other observations

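A list of genes of receptor shedding was read beside the receptor chains. Its measured genes were Adam10 and Adam17, proteases that shed the extracellular parts of several of these receptors, and Rhbdf2, Frmd8 and Timp3. Adam10, a metalloproteinase known to cleave Il6ra, was at 27.5 FPKM in the ECM1-deficient library and 12.5 FPKM in the ECM1-sufficient library, a difference of 1.07 and of 0.33 relative to the median gene. Adam17, the other such protease, was at 20.2 and 11.9 FPKM, a difference of 0.71 and of -0.03 relative to the median gene. Of 5 measured genes of this list, 1 was called 2-fold higher and 0 lower, where 14.8% and 2.17% of all genes tested were.

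A further list of 25 receptor chains had 7 genes with values, of the GM-CSF, interleukin-3, G-CSF and interleukin-1 families. Of these 7, 3 were called higher and 0 lower, where 14.8% and 2.17% of all genes tested were. Their median difference was 0.93, against 0.61 over all genes, and 0.18 relative to the median gene. On that second scale 0 were called, 4 lay above 0, and Il1r1, Il1rl2 and Csf2rb2 lay below it. Il3ra, the interleukin-3 receptor chain, was at 10.2 FPKM in the ECM1-deficient library and 2.97 FPKM in the ECM1-sufficient library. Csf2ra was at 17.98 and 8.07 FPKM, and Csf3r at 4.03 and 1.42 FPKM. Csf2rb, the signalling chain shared by GM-CSF and interleukin-3, was at 36.2 and 18.5 FPKM, the third highest of the 24 receptor chains in both libraries. Csf2rb and its close copy Csf2rb2 can share reads.

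The 5 genes nearest to Il7r in log2(FPKM + 1) over the 2 libraries were Tceb2, Canx, Aplp2, Arf1 and Calm3, at distances of 0.02 to 0.10. Tceb2 was at 106 FPKM in the ECM1-deficient library and 60.9 FPKM in the ECM1-sufficient library.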
